A study of Mus musculus with 48 samples.

Results

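Dntt, Ebf1 and Il7r are genes of early lymphoid development, and their transcripts were followed through clonal cultures of mouse ER-Hoxb8 cells, which are myeloid. They are 3 of the 34617 gene rows analysed, taken by symbol, and they were picked with their levels in both states of these cultures already known. Their difference between the states is therefore given as a description, with no test. RNA-seq libraries were made from the monocytic cells of 24 clones (monocyte, n = 24) and from the granulocyte-monocyte progenitors (GMP) of the same clones (progenitor, n = 24). All 48 libraries came from mouse bone marrow ER-Hoxb8 cells kept in RPMI medium with serum, penicillin and streptomycin, and stem cell factor (SCF). ER-Hoxb8 cells are conditionally immortalised progenitors in which a Hoxb8 protein fused to the hormone-binding domain of the estrogen receptor holds cells in a dividing state, so both groups derive from an engineered line and not from fresh marrow. The series' text pairs the 2 states by clone. The titles call progenitors plus and monocytes minus, words that the labels leave undefined.

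Lymphoid priming is the low-level expression of lymphoid genes in progenitors that have not yet left the myeloid path. Dntt encodes terminal deoxynucleotidyl transferase, a polymerase that adds untemplated nucleotides to the ends joined during V(D)J recombination of antigen receptor genes. Ebf1 encodes the transcription factor that specifies the B lineage and switches on genes of the pre-B-cell receptor. Il7r encodes the interleukin 7 receptor alpha chain, which pairs with the common gamma chain Il2rg to bind IL-7 and with Crlf2 to bind thymic stromal lymphopoietin (TSLP), and which also occurs on some monocytes and macrophages.

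The promoters of the members are shown because they are the windows in which the genes that differ between the states can be compared by sequence. Each spans 250 bases before and 50 bases after a RefSeq start site of GRCm38.p6, and all 3 members matched, Ebf1 with 2 start sites. Dntt lies at chr19:41029025-41029324 on the plus strand, Ebf1 at chr11:44617850-44618149 and chr11:44619978-44620277 on the plus strand, and Il7r at chr15:9529827-9530126 on the minus strand. Capitals mark letters that matched a searched motif, and lower case marks the rest.
Dntt promoter: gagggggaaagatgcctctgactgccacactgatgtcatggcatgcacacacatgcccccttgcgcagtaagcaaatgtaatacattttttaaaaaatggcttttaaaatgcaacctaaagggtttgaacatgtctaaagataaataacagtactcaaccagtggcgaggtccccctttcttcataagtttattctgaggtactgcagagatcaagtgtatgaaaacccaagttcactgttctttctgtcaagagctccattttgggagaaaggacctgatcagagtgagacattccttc
Ebf1 promoter at the first start: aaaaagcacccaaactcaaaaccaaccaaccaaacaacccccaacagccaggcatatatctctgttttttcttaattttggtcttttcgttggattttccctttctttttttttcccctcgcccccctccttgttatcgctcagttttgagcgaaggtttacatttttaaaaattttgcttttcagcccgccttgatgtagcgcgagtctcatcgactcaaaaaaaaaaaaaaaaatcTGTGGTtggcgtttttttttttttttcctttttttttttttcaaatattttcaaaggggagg
Ebf1 promoter at the second start: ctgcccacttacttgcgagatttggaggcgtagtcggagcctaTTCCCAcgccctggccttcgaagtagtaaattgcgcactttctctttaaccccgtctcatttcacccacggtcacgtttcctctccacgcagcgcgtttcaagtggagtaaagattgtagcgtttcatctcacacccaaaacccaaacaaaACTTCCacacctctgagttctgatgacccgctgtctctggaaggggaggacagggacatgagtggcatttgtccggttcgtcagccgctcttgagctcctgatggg
Il7r promoter: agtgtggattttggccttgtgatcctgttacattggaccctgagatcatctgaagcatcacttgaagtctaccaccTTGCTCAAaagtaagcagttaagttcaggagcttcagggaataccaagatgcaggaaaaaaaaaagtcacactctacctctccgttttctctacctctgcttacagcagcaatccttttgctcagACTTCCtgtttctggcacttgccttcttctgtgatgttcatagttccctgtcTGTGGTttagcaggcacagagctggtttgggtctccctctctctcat

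Both strands were searched for 5 short motifs of factors of lymphoid and myeloid cells. They were CCCNNGGG for Ebf, GGAAGT for Ets factors, TGTGGT for Runx, TTGCNNAA for C/EBP and TGGGAA for Ikaros. The Il7r promoter held an Ets match 49 bases before its start (read as ACTTCC), a Runx match 3 bases after it and a C/EBP match 174 bases before it. The first Ebf1 promoter held a Runx match 12 bases before its start. The second held an Ets match 56 bases before and an Ikaros match 207 bases before (read as TTCCCA). No motif matched in the Dntt window and no Ebf motif in any of the 4 windows, which says only that these letters are not there. Of 32851 RefSeq promoters of the same length, 13.7% held the Ebf motif, 23.8% the Ets, 16.8% the Runx, 10.8% the C/EBP and 25.6% the Ikaros motif, so single matches of this kind are common. The Ets and Ikaros motifs share the letters GGAA, and no matches overlapped in these windows. The windows had 42.3% (Dntt), 36.7% and 53.0% (Ebf1) and 45.7% (Il7r) G and C, against a median of 52.7% over all promoters. They held 2, 9, 17 and 1 CpG, against a median of 7.

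In the mouse annotation of mm10, Dntt (ENSMUSG00000025014.13) spans chr19:41029275-41059525 on the plus strand with 3 annotated transcripts, 2 of them coding. Ebf1 (ENSMUSG00000057098.14) spans chr11:44617317-45008091 on the plus strand with 7 transcripts, 3 of them coding. Its span overlaps 1 antisense gene, Gm12158, and whether their exons overlap was not checked. The use of strand in quantification is not given either, so whether reads of that gene were counted for Ebf1 is not known. Il7r (ENSMUSG00000003882.5) spans chr15:9505788-9530176 on the minus strand with 4 transcripts, 2 of them coding.

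Values are TPM, in which transcript abundance is corrected for length and set relative to the library total. Depth cannot be read from TPM, so it is unknown here and no counting error can be given. Monocyte libraries had 9436 to 10717 genes at 1 TPM or more, and progenitor libraries had 8240 to 11030. Clones 15 to 26 (n = 11) and clones 1 to 13 (n = 13) stood apart from each other in the whole profile, although the labels name no batch. The sets were drawn after an earlier look at these same profiles, so every p-value between them can be too small. Mitochondrial transcripts took 11.6% ± 6.95 of TPM in monocytes of clones 15 to 26 and 5.11% ± 2.07 in those of clones 1 to 13 (SD), and in progenitors they took 11.97% ± 2.06 in clones 15 to 26 and 5.73% ± 1.44 in clones 1 to 13. Progenitor clone 21 had 23247 genes listed at 0. Nothing in the labels says that clones came from separate animals, so p-values measure only the spread between these clones.

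Dntt was a progenitor transcript in these cultures. In monocytes it ran from 0 through a median of 0.0167 to 0.178 TPM and was listed at 0 in 7 libraries, all of clones 15 to 26. In progenitors it ran from 0 through a median of 7.54 to 37.4 TPM, with a mean of 10.4 ± 9.74 TPM (SD, n = 24). A value listed at 0 can be a failed estimate. Dntt was lower in the monocyte library of 23 of 24 clones, and clone 21 was listed at 0 in both states. On the log2(TPM + 1) scale, which understates the change of low genes, the mean difference (monocyte minus progenitor) was -2.80 ± 1.57 (SD over 24 clones). The groups overlapped in 2 progenitor libraries, clone 21 at 0 and clone 18 at 0.129 TPM, both below the highest monocyte.

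Ebf1 was present at a few TPM in most progenitors and under 1 TPM in monocytes. In monocytes it ran from 0.0853 through a median of 0.193 to 0.470 TPM, and all 24 libraries were under 1 TPM. In progenitors it ran from 0.422 through a median of 2.47 to 19.96 TPM, and 20 of 24 libraries reached 1 TPM. Clone 15 was the highest progenitor, and clone 24 the lowest. The mean log2 difference (monocyte minus progenitor) was -1.70 ± 1.03 (SD, n = 24), and Ebf1 was lower in the monocyte library of all 24 clones. The smallest difference was -0.02 in clone 24, with 0.402 TPM in its monocytes and 0.422 TPM in its progenitors.

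Il7r went the other way. In monocytes it ran from 0.416 through a median of 9.18 to 42.2 TPM, with a mean of 11.98 ± 10.3 TPM (SD, n = 24). In progenitors it ran from 0.0342 through a median of 0.226 to 5.34 TPM, and 20 of 24 libraries were under 1 TPM. The mean log2 difference was 2.67 ± 1.26 (SD, n = 24), and Il7r was higher in the monocyte library of all 24 clones. The groups overlapped, since 5 monocyte libraries lay below progenitor clone 23, the highest progenitor. In a bulk library, fewer cells that carry a transcript and less of it per cell cannot be told apart.

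Over the whole table, limma called 68.8% of 11072 genes different between the states, 32.4% higher and 36.5% lower in monocytes, with a median log2 fold change of -0.06. In a table rescaled without its mitochondrial, Gm and pseudogene entries that median was -0.25, and changes near this size depend on the scaling. The 3 members were picked on this contrast, so nothing is read from their place in it. With a pseudocount of 0.1 in place of 1 the differences were -5.28 for Dntt, -3.18 for Ebf1 and 4.11 for Il7r, and with a pseudocount of 5 that of Il7r was 1.37, so the size depends on the scale while the direction did not in any alternative run.

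**Figure D1:**
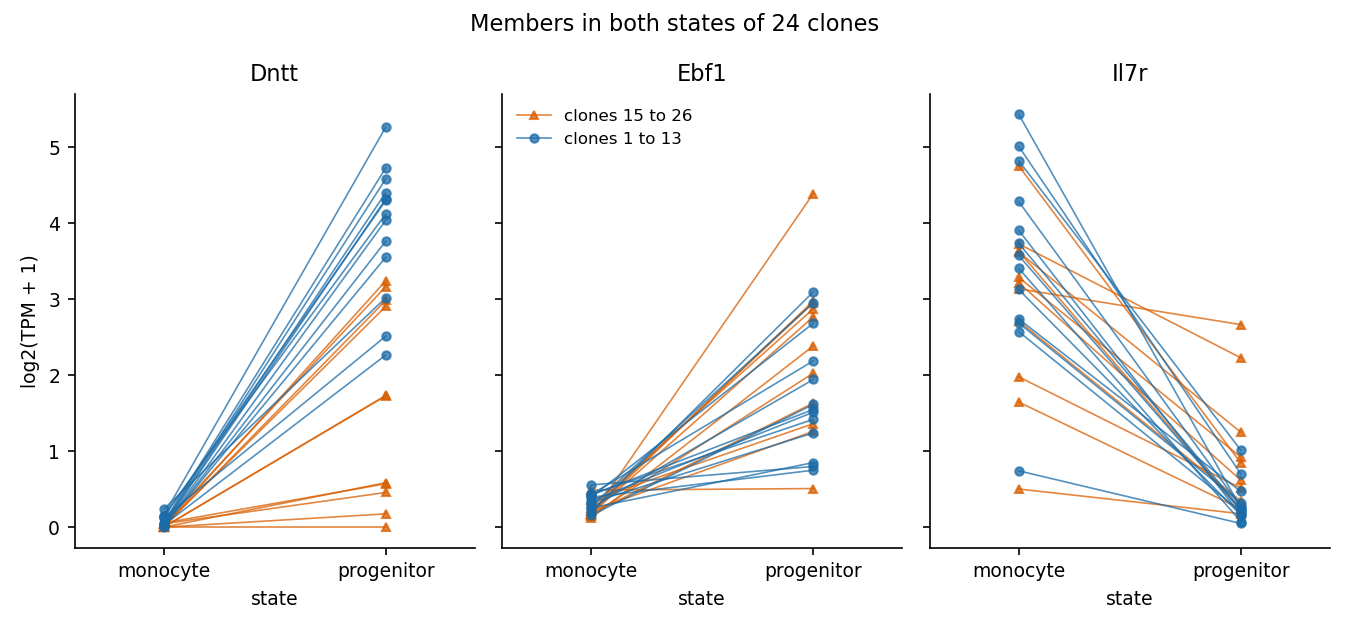
Level of Dntt, Ebf1 and Il7r on the log2(TPM + 1) scale (vertical axis) in the monocyte and the progenitor library of each of 24 clones; each line joins the libraries of 1 clone, with triangles for clones 15 to 26 and circles for clones 1 to 13. Dntt and Ebf1 lines end near 0 in monocytes, and Il7r lines are higher in monocytes for all 24 clones.

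TPM are per length, so the members' levels can be ordered within a library. In monocytes Il7r was above Ebf1 and above Dntt in 24 of 24 libraries, and Ebf1 was above Dntt in 23 of 24. The order of Ebf1 and Dntt there lies among values under 1 TPM and is not firm. In progenitors Dntt was above Ebf1 in 18 of 24 libraries, and Ebf1 was above Il7r in 22 of 24. The first of these held in 5 of 11 progenitor libraries of clones 15 to 26 and in 13 of 13 of clones 1 to 13. In clones 15 to 26 the progenitor levels of the 2 genes overlapped, with medians of 2.31 TPM for Dntt and 4.22 TPM for Ebf1.

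The sets of clones, which were chosen with these profiles known, differed in Dntt. Progenitors of clones 15 to 26 ran from 0 through a median of 2.31 to 8.46 TPM, and those of clones 1 to 13 from 3.81 through a median of 16.4 to 37.4 TPM. All 5 progenitor libraries under 1 TPM (clones 16, 18, 19, 21 and 24) belonged to clones 15 to 26, and the sets overlapped between 3.81 and 8.46 TPM. The log2 difference (clones 15 to 26 minus clones 1 to 13) was -2.32 (SE 0.42, 95% interval -3.14 to -1.50, limma adjusted p = 0.000151), where 39.4% of 11068 genes were called between the progenitors of the sets, 10.9% lower and 28.5% higher in clones 15 to 26. In monocytes, where Dntt was near 0, the log2 difference was -0.06 (95% interval -0.21 to 0.08, limma adjusted p = 0.661), and 7.15% of genes were called. Dntt entered that test through its progenitor level alone, so its monocyte value is not read as a result.

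The change of Dntt between states carries the same difference, since Dntt was near 0 in monocytes. Monocyte minus progenitor, it averaged -1.58 ± 1.30 in clones 15 to 26 and -3.84 ± 0.88 in clones 1 to 13 (SD). The difference of these changes, 2.25, is not a result apart from the progenitor level. The share of mitochondrial transcripts moved with the same clones: over the 24 progenitor libraries its r with Dntt was -0.757 (rho = -0.813, permutation p = 6e-05, adjusted p = 0.00036 over 12 relations of members with library measures, -0.694 without the 2 farthest clones). Within the sets r was -0.155 in clones 15 to 26 and -0.625 in clones 1 to 13, and its part in the result was not tested.

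The log2 differences of Ebf1 and Il7r between the sets were smaller. Ebf1 in progenitors had a median of 4.22 TPM in clones 15 to 26 and 1.93 TPM in clones 1 to 13, a log2 difference of 0.55 with a 95% interval of -0.16 to 1.25 (limma adjusted p = 0.231). Without clones 19, 21, 24 and 26, libraries that stood apart, that difference was 0.94 (limma adjusted p = 0.0311). All of these belong to the set of clones 15 to 26, and without them 7625 genes were called between the progenitors of the sets in place of 4358. Il7r in progenitors had a median of 0.535 TPM in clones 15 to 26 and 0.182 TPM in clones 1 to 13. Its log2 difference was 0.59 (SE 0.24, 95% interval 0.13 to 1.06, limma adjusted p = 0.0485). Il7r passed the filter on low values through its monocyte level alone, 20 of 24 progenitor libraries were under 1 TPM, and the call was lost when any of 16 clones was left out (0.42 without clone 23), so it is not read as a difference.

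The change of Il7r between states averaged 2.02 ± 1.11 in clones 15 to 26 and 3.22 ± 1.13 in clones 1 to 13 (SD), a difference of -1.21 (95% interval -2.06 to -0.36, limma adjusted p = 0.0676). In this comparison 11.5% of genes were called, 1.66% with a positive and 9.79% with a negative difference. Il7r did pass at a pseudocount of 0.1 (-2.05, limma adjusted p = 0.0167) and in the rescaled table (-1.32, limma adjusted p = 0.0456). Its progenitor values enter this change and were under 1 TPM in 20 of 24 libraries. A smaller pseudocount enlarges differences among such values, so these calls are not read as a difference. The change of Ebf1 differed by -0.66 (95% interval -1.42 to 0.10, limma adjusted p = 0.263). It passed without clones 19, 21, 24 and 26 (-1.11, limma adjusted p = 0.0427), where 2938 genes were called in place of 1268. With Ebf1 low in all monocytes, its change mostly carries its progenitor level and is not a result apart from it. In monocytes Il7r did not pass between the sets, at -0.61 (95% interval -1.53 to 0.30, limma adjusted p = 0.465). That interval leaves room for differences of over 1 log2 unit. Ebf1 was under 1 TPM in all 24 monocyte libraries and passed the filter on low values through its progenitor level alone. Its log2 difference there, -0.12 (95% interval -0.28 to 0.04, limma adjusted p = 0.424), is therefore not read as a result.

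**Figure D2:**
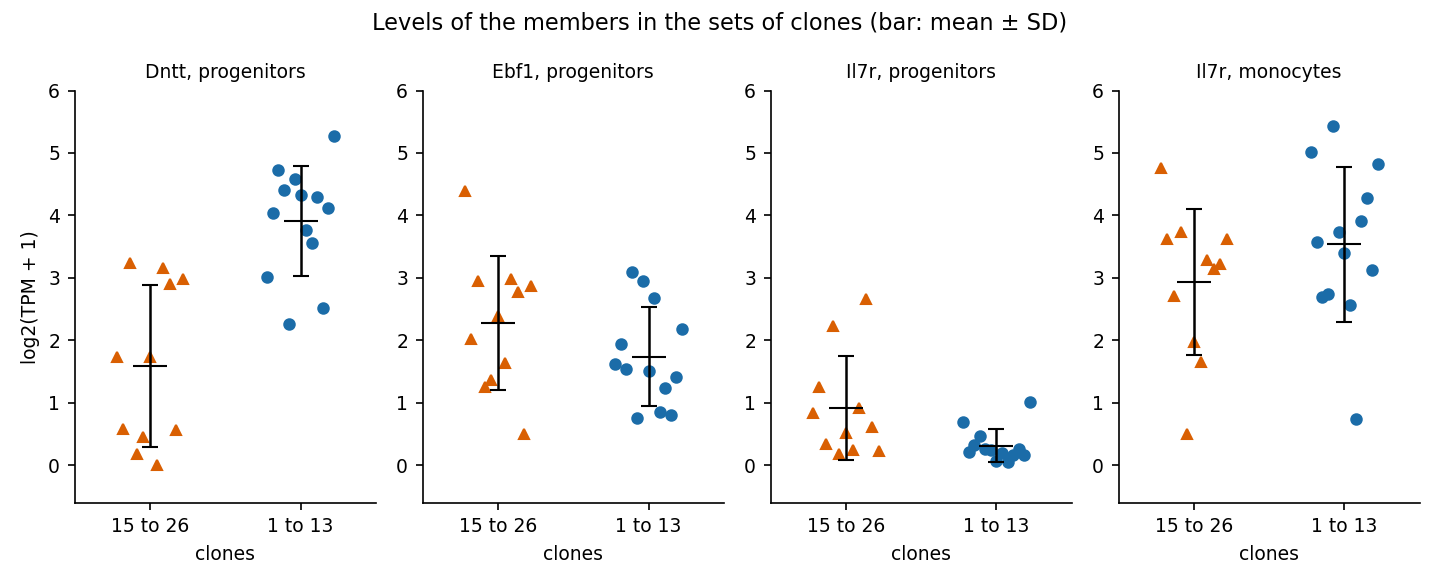
Levels on the log2(TPM + 1) scale (vertical axis) of Dntt, Ebf1 and Il7r in progenitors and of Il7r in monocytes, with clones 15 to 26 (triangles, n = 11) left of clones 1 to 13 (circles, n = 13); each point is 1 library and the bars are mean ± SD. Dntt in progenitors parts the sets most, with a mean of 1.59 in clones 15 to 26 and 3.91 in clones 1 to 13.

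Measuring both states of each clone allowed the question whether a clone high in Il7r as a progenitor was also high as monocytes. The Pearson correlation over 24 clones was 0.216 (rho = 0.318, one-sided permutation p = 0.152, adjusted p = 0.417 over 10473 genes), where 4.38% of genes passed. Within clones 15 to 26 it was 0.421, and within clones 1 to 13 it was 0.513. With each set centred on its mean it was 0.389 (permutation p = 0.0187, adjusted p = 0.379, where 0.401% of genes passed), and without the 2 farthest clones it was 0.386, so it did not pass in any of these. Il7r entered this test through its monocyte level, and 20 of 24 progenitor libraries were under 1 TPM. Neither these r values nor the lack of a call is therefore firm. Clone 23, the highest in progenitors, had 7.79 TPM in its monocytes and 5.34 TPM in its progenitors. Clone 18, the next, had 12.2 TPM in its monocytes and 3.68 TPM in its progenitors. Dntt and Ebf1 varied too little in monocytes to be tested (SD of 0.06 and 0.12 log2 units), and their r of 0.348 and -0.567 across states is a description of values near 0.

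Il7r in progenitors was set beside markers of maturing cells. The summed monocyte markers (9 genes) came to 726 TPM in progenitor clone 23, 467 TPM in clone 18 and 527 TPM in clone 16, the 3 clones highest in Il7r, where the median over progenitors was 243 TPM. The highest sums, 1378 TPM in clone 21 and 1299 TPM in clone 20, stood beside only 0.181 and 0.429 TPM of Il7r. Clone 13, the next in Il7r with 1.02 TPM, had 286.7 TPM. The neutrophil granule sum was 41.2 TPM in clone 23 against a median of 37.1 TPM, and the median r of those 8 markers with Il7r was -0.01, none passing at an adjusted p under 0.05. Across progenitors Il7r went with Csf1r, the receptor of macrophage colony-stimulating factor (r = 0.652, rho = 0.737, permutation adjusted p = 0.0369), with Lyz2, lysozyme (r = 0.610, adjusted p = 0.0398) and with Cd14 (r = 0.603, adjusted p = 0.0446). These were 3 of 7 monocyte markers tested, against 6.74% of 10720 genes. Il7r was under 1 TPM in 20 of 24 progenitor libraries, so these relations are not firm. Without the 2 clones farthest from its median, 3 genes of the whole table passed with Il7r in place of 723. With each set centred none of the 7 markers passed, where 0.121% of genes did. Centred r was 0.542 for Csf1r, 0.542 for Lyz2 and 0.467 for Cd14, and the part of maturing cells in the level of Il7r was not tested.

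Dntt and Ebf1 correlated weakly over all progenitors and had a larger r within each set of clones. Pooled, r was 0.197 (rho = 0.228, permutation p = 0.354, adjusted p = 0.551 over the genes compared with Dntt). Within the sets it was 0.689 in clones 15 to 26 and 0.581 in clones 1 to 13. Centring each set gave 0.648 (permutation p = 0.00125), between 0.621 and 0.735 when each clone was left out. Adjusted over the 10719 genes compared with Dntt that p was 0.147, where 0.317% of genes passed, and over those compared with Ebf1 it was 0.0119, where 47.0% passed. Clone 24 had 0.422 TPM of Ebf1 and clone 15 had 19.96 TPM, with 2.32 TPM of Dntt in the second.

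Il7r in progenitors passed with neither. With Dntt r was -0.298 (rho = -0.296, permutation p = 0.157, adjusted p = 0.256), and its sign turned within the sets, to 0.034 in clones 15 to 26 and 0.2503 in clones 1 to 13. Without clones 19, 21, 24 and 26 it was -0.510 (permutation adjusted p = 0.0426), where 5634 genes passed with Il7r in place of 723. With Ebf1 it was 0.196 (rho = 0.343, permutation p = 0.359, adjusted p = 0.465), 0.010 within clones 15 to 26 and 0.306 within clones 1 to 13.

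**Figure D3:**
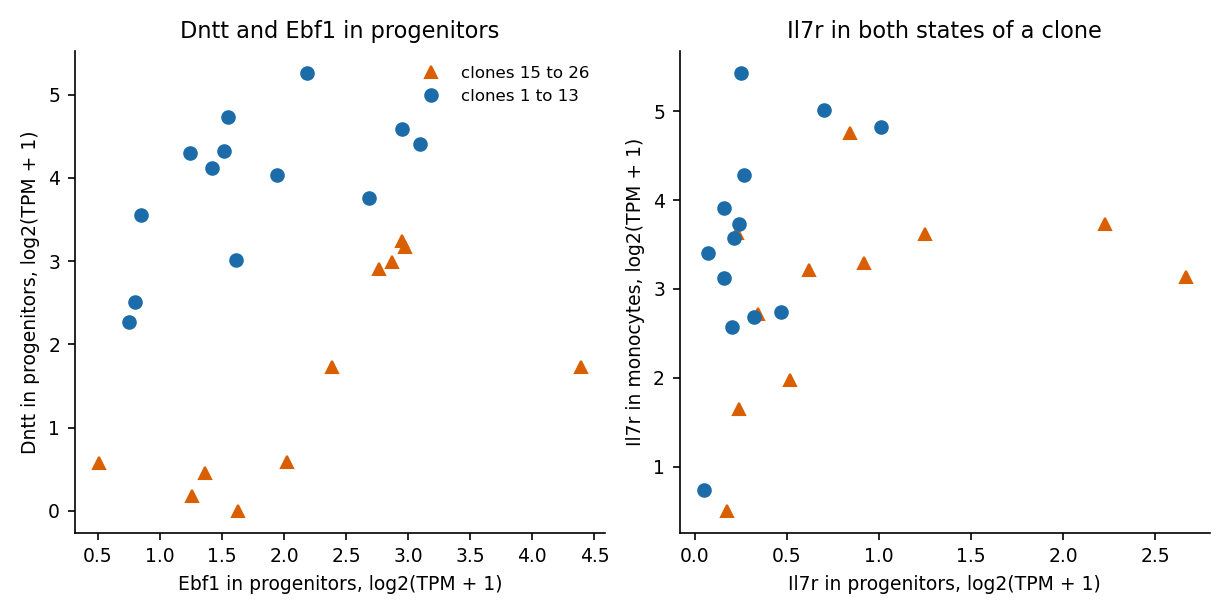
Left, Dntt against Ebf1 in progenitors; right, Il7r in monocytes against Il7r in progenitors of the same clone, all on the log2(TPM + 1) scale, with triangles for clones 15 to 26 and circles for clones 1 to 13. On the left both sets slope upward, with r of 0.689 in clones 15 to 26, which lie lower, and 0.581 in clones 1 to 13; on the right r over all 24 clones is 0.216.

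The genes most like each member were named by their r with it across the 24 libraries of its higher state, each set centred, and are given as a description. For Dntt in progenitors they were the orphan receptor Gpr12 (r = 0.871), the G protein-coupled receptor Gpr171 (0.827), the ubiquitin ligase Neurl3 (0.809), the heparan sulfate proteoglycan Sdc1 (0.807) and Fam32a (0.805). Gpr12 ran from 0 in clone 21 to 32.3 TPM in clone 26 with a median of 11.4 TPM, and its r with Dntt was 0.925 in clones 15 to 26 and 0.767 in clones 1 to 13. Sdc1 ran from 5.10 to 107 TPM, lowest in clone 19 and highest in clone 13, the clone with the highest Dntt. Clone 8 had nearly as much Sdc1, 106 TPM, with 12.6 TPM of Dntt. The r of Sdc1 with Dntt was 0.92 in clones 15 to 26 and 0.539 in clones 1 to 13. For Ebf1 in progenitors they were Flt3 (0.862), the lectin Cd33 (0.840), the phospholipase Plcg2 (0.821), the chondroitin synthase Chsy1 (0.792) and the carbonic anhydrase Car2 (0.788).

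Flt3, the receptor of FLT3 ligand and a marker of lymphoid-primed progenitors, tracked Ebf1 closely. It ran from 4.15 TPM in clone 24 through a median of 19.7 to 34.6 TPM in clone 15, the same clones that were lowest and highest in Ebf1. Of the progenitor libraries, clone 24 also had the fewest genes at 1 TPM or more (8240) and the highest mitochondrial share (16.7%). Without that clone the centred r of Flt3 with Ebf1 was 0.846. The r of Flt3 with Ebf1 was 0.836 in clones 15 to 26 and 0.907 in clones 1 to 13. Ebf1 correlated with much of the transcriptome, since 55.4% of 10719 genes passed, 54.1% with a positive r, and the median r was 0.479. It also went with the number of genes at 1 TPM or more (r = 0.624, rho = 0.579, permutation p = 0.00107, adjusted p = 0.00428 over 12 relations, 0.577 within clones 15 to 26 and 0.647 within clones 1 to 13). The share of gene models named Gm ran the other way (r = -0.538, rho = -0.537, permutation adjusted p = 0.0201), and the part of these library measures in the result was not tested.

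For Il7r in monocytes the closest genes were Lipa, the lysosomal acid lipase (0.959), the peroxidase Prdx1 (0.958), the phosphatase Dusp3 (0.946), the stress-response factor Atf3 (0.944) and Gusb, the lysosomal beta-glucuronidase (0.944). Lipa ran from 6.44 TPM in clone 19 through a median of 88.5 to 455 TPM in clone 1, and its r with Il7r was 0.949 in clones 15 to 26 and 0.967 in clones 1 to 13. Clone 19 was the lowest monocyte library in Il7r, Lipa, Prdx1, Dusp3 and Atf3. Of 10762 genes 26.2% passed with Il7r in monocytes, nearly all with a positive r. Its level also went with the number of genes at 1 TPM or more (r = 0.752, rho = 0.673, permutation p = 1e-05, the smallest that 100000 permutations give, adjusted p = 0.00012, 0.738 within clones 15 to 26 and 0.743 within clones 1 to 13), and the part of that measure was not tested.

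**Figure D4:**
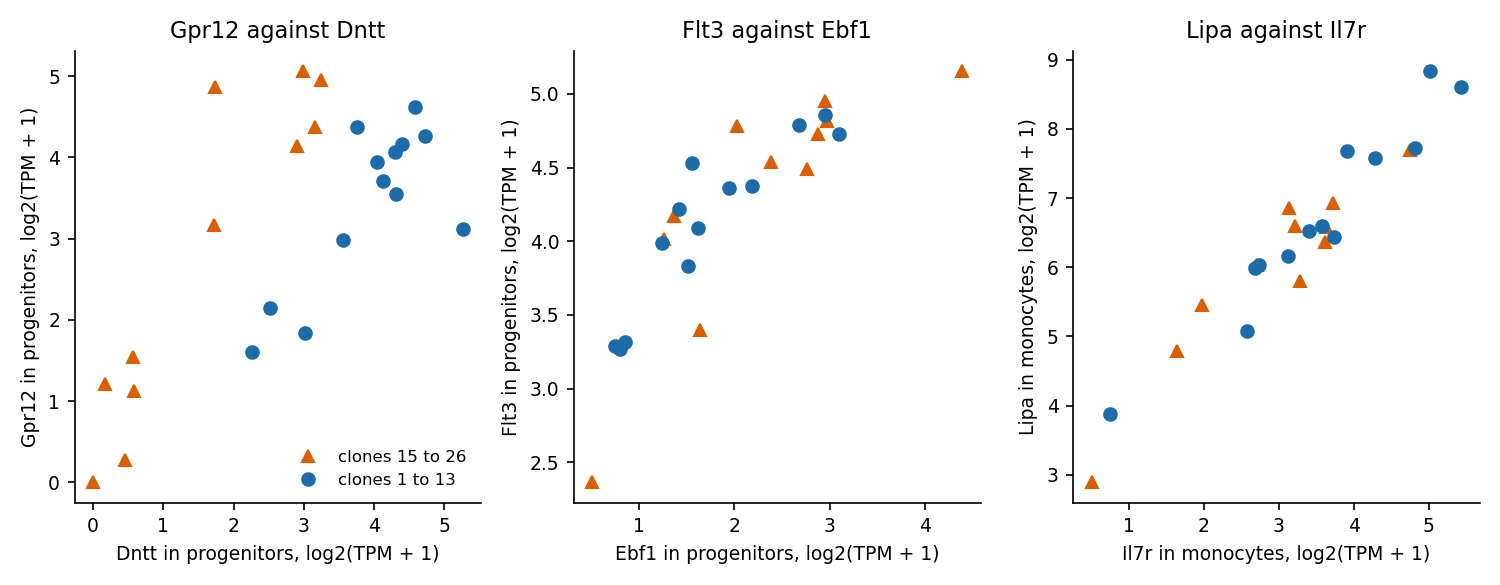
From left to right, Gpr12 against Dntt in progenitors, Flt3 against Ebf1 in progenitors and Lipa against Il7r in monocytes, each on the log2(TPM + 1) scale with 1 point per clone (triangles, clones 15 to 26; circles, clones 1 to 13). Lipa and Il7r lie along 1 line in both sets, with r of 0.949 in clones 15 to 26 and 0.967 in clones 1 to 13, while the sets lie apart for Gpr12 and Dntt.

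Il7r went with the monocyte markers among the monocytic cultures. Of 9 monocyte markers 7 passed with a positive r, with a median r over the 9 of 0.676, against 25.4% of all genes passing positively and a median r of 0.286. They included Csf1r (r = 0.872, rho = 0.797, permutation adjusted p = 0.000317), Ccr2 (r = 0.789), the coagulation factor F13a1 (r = 0.733) and the fractalkine receptor Cx3cr1 (r = 0.627). Ly6c2 (r = 0.029) and Itgam (r = 0.277) did not pass. Of 8 neutrophil granule markers none passed, at an adjusted p under 0.05, and their median r was -0.06. With each set centred the median r was -0.30 and 1, Cebpe, passed (r = -0.477, permutation adjusted p = 0.0412).

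The extremes of Il7r in monocytes differed in these markers. Clone 5, with 42.2 TPM of Il7r, had a summed monocyte marker level of 16210 TPM and a summed neutrophil granule level (8 genes) of 38000 TPM. Clone 19, with 0.416 TPM of Il7r, had the lowest monocyte sum, 2175 TPM, and 81960 TPM of neutrophil granule transcripts. Clone 9, with 0.672 TPM, had sums of 6681 and 152000 TPM. The median granule sum over monocytes was 74622 TPM, not far from that of clone 19. The lowest granule sums, 422 TPM in clone 22 and 1962 TPM in clone 23, did not stand beside high Il7r. These clones had 8.76 and 7.79 TPM of it, under its median of 9.18 TPM. Libraries labelled monocytic ran from 422 to 187228 TPM in the neutrophil granule sum, so they held neutrophil granule transcripts in very different amounts, and the part of this in Il7r was not tested.

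Partners of Il7r were present in both states. Il2rg averaged 59.0 TPM in monocytes and 47.3 TPM in progenitors, a log2 fold change of -0.01 (SE 0.23, limma adjusted p = 0.979), and Crlf2 averaged 30.2 TPM in monocytes and 24.9 TPM in progenitors (log2 fold change 0.24, SE 0.13, limma adjusted p = 0.0950). The ligand genes Il7 and Tslp reached at most 0.0901 and 0.245 TPM in any library. Of 15 tested genes of IL-7 and TSLP signalling other than Il7r, 9 rose and 2 fell (8 and 3 in the rescaled table), where 32.4% of all genes rose and 36.5% fell. Their median log2 fold change was 0.98, and that over all genes was -0.06. Those with the largest changes were Mcl1, an anti-apoptotic protein (2.19, SE 0.17), the phosphatase Ptpn6 (1.70, SE 0.19) and the feedback inhibitor Socs3 (1.69, SE 0.38), with limma adjusted p-values of 1.22e-11, 8.44e-09 and 0.000299.

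The kinases Jak1 (1.17) and Jak2 (0.98) rose, while Jak3, the kinase that binds the common gamma chain, did not pass (-0.31, limma adjusted p = 0.0529) but did in the rescaled table (-0.54, limma adjusted p = 0.00171). Stat5a (-1.05) and the anti-apoptotic Bcl2 (-0.98) fell. Of the other 9 common gamma chain and related receptors 5 were tested. Il4ra (1.95, SE 0.15) and Il21r (0.64, SE 0.16) rose, where 32.4% of all genes did, while the other 3 did not pass. Il2rb was listed at 0 in all 48 libraries. Across monocytes Il7r went with Il2rg (r = 0.815, rho = 0.786, permutation adjusted p = 0.000317, 0.935 within clones 15 to 26 and 0.857 within clones 1 to 13), 1 of 5 genes of the IL-7 list that passed out of 15 tested, where 26.2% of all genes passed, Mcl1, Stat5a, Bcl2 and Sh2b3 being the others.

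Dntt acts on ends made by the recombinase Rag1 and Rag2. Rag2 averaged 0.0407 TPM in monocytes and 6.87 TPM in progenitors (log2 fold change -2.74, SE 0.16, limma adjusted p = 4.12e-14). It reached at most 0.434 TPM in monocytes and was at least 0.623 TPM in progenitors. Rag1 was at most 0.00519 TPM in monocytes and 0.587 TPM in progenitors and was too low to be tested, so the partners of the recombinase were far apart in level. Of 11 tested genes of V(D)J recombination and end joining other than Dntt, 3 rose and 6 fell, against 32.4% and 36.5% of all genes, with a median of -0.34. Hmgb1, a cofactor of the recombinase, fell by 1.70 on the log2 scale and the damage kinase Atm by 1.43.

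The other family X polymerases, relatives of Dntt that fill gaps in DNA repair, were listed above 0 in all 48 libraries. Polm had a median of only 0.336 TPM in progenitors. Polm averaged 1.81 TPM in monocytes and 0.511 TPM in progenitors and rose by 0.90 (SE 0.09, limma adjusted p = 2.43e-09). Polb rose by 0.36 (SE 0.10), a call that was lost in the rescaled table (0.14, limma adjusted p = 0.188), and Poll fell by 0.52 on the log2 scale (SE 0.12). Across progenitors Dntt passed with 2 of 11 V(D)J genes, Hmgb1 (r = 0.703) and Hmgb2 (r = 0.654), against 14.7% of all genes, and with none when each set was centred. With Rag2 its r was 0.332 (rho = 0.271, permutation adjusted p = 0.278).

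Other members of the Ebf family were near 0. Ebf2, Ebf3, Ebf4 and the partners Zfp423 and Zfp521 were at most 0.0223 TPM in any library and were not tested. Among 11 tested B-lineage transcription factors other than Ebf1, 5 rose and 3 fell (5 and 4 in the rescaled table), so 8 of 11 were called where 68.8% of all genes were. Id2, an inhibitor of E proteins, averaged 73.9 TPM in monocytes and 2.07 TPM in progenitors (log2 fold change 4.79, SE 0.21), and Irf8 rose by 2.47, while Myb fell by 3.42 on the log2 scale. Tcf3, the E protein that acts with Ebf1 in B-cell specification, fell by 1.22. Pax5, which follows Ebf1 in B-cell commitment, was listed at 0 in all 24 monocyte libraries and in 19 of 24 progenitor libraries, and reached 0.212 TPM.

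Of 14 genes that Ebf1 is known to bind in early B cells 6 were tested, of which 2 rose and 4 fell, against 32.4% and 36.5% of all genes. The surrogate light chain gene Igll1 averaged 0.417 TPM in monocytes and 26.9 TPM in progenitors (log2 fold change -2.75, SE 0.38, limma adjusted p = 3.98e-07), up to 197 TPM in 1 progenitor library. Cd72, a B-cell co-receptor also found on macrophages, fell by 2.31, and Cd79b, a chain of the B-cell receptor, by 0.89. Cd24a, a surface protein also of granulocytes, rose by 2.51. In progenitors Ebf1 passed with Cd72 (r = 0.634, rho = 0.638, permutation adjusted p = 0.00573) and Ralgps2 (r = 0.548), which makes 2 of the 6 list genes at a mean of 1 TPM or more in progenitors, where 55.4% of all genes passed. Dntt passed with 3 of these 6, where 14.7% of all genes passed: Cd72 (r = 0.665, rho = 0.625, permutation adjusted p = 0.00798), Vpreb1 (r = 0.586), a surrogate light chain gene, and Cd24a (r = 0.543). With each set centred it passed with Cd72 alone (r = 0.801, permutation adjusted p = 0.0298), where 0.317% of all genes passed.

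Of 8 tested genes of lymphoid-primed progenitors 4 rose and 3 fell, or 4 and 4 in the rescaled table, where 32.4% of all genes rose and 36.5% fell. Flt3 averaged 0.0664 TPM in monocytes and 19.3 TPM in progenitors (log2 fold change -4.12, SE 0.14, limma adjusted p = 5.79e-19), Sox4 fell by 3.27 and the costimulatory receptor Cd27 by 2.85. Among the genes that rose were Notch1 (2.64), Mef2c (1.07) and Dach1 (0.84). The change of Notch1 was smaller in clones 15 to 26, at 1.08, than in clones 1 to 13, at 3.96 (limma adjusted p = 0.0256 for the difference), as was that of Dach1, at 0.22 in clones 15 to 26 and 1.36 in clones 1 to 13 (limma adjusted p = 0.0344). In progenitors Ebf1 passed with 5 of the 8, where 55.4% of all genes passed, namely Flt3, Satb1 (r = 0.711), Sox4 (r = 0.672), Notch1 (r = 0.544) and Mef2c (r = 0.480), and with 4 when each set was centred, where 47.0% passed. Dntt passed with none of the 8 at an adjusted p under 0.05, where 14.7% of all genes passed. The difference between Ebf1 and Dntt in these counts was not tested.

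**Figure D5:**
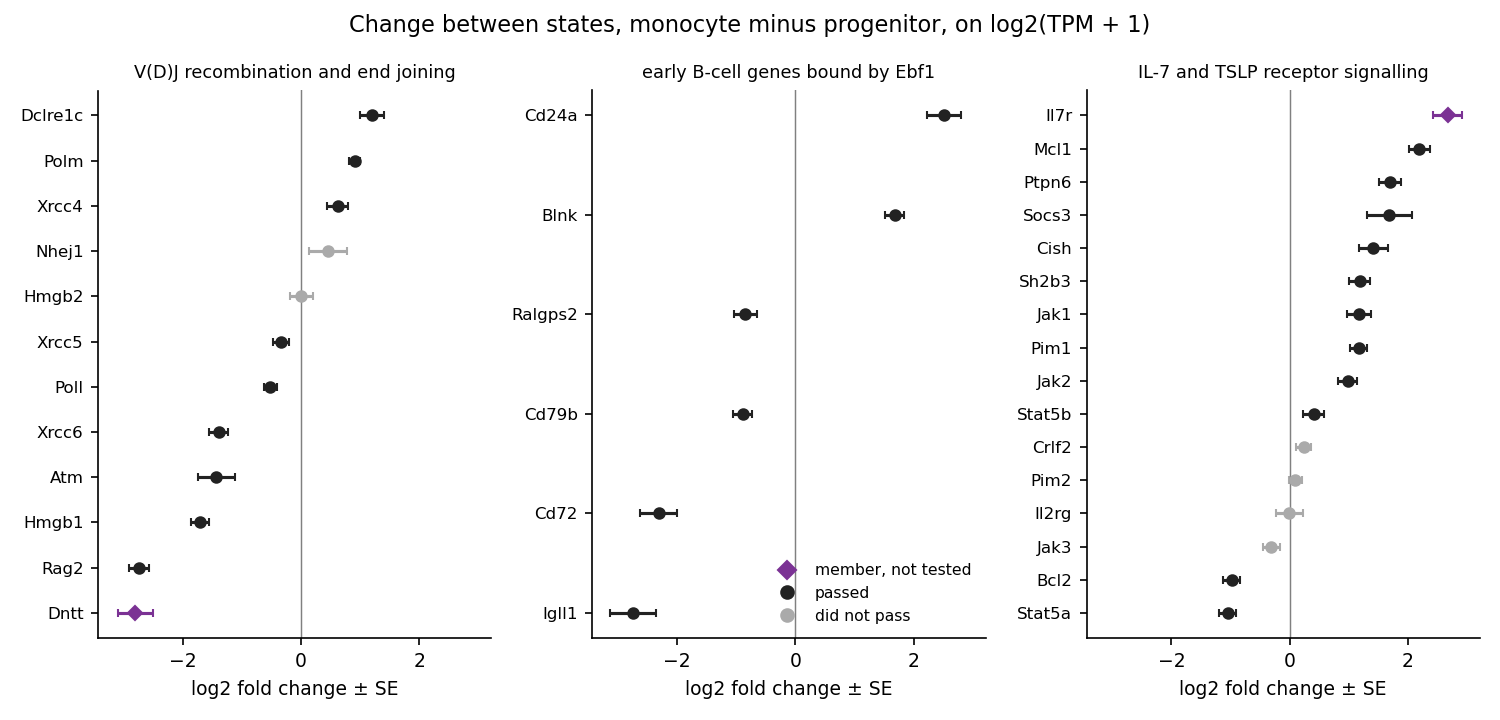
Log2 fold change between states, monocyte minus progenitor, on log2(TPM + 1) (horizontal axis, bars are SE) for the tested genes of 3 lists; diamonds mark Dntt and Il7r, which were not tested, and grey marks genes that did not pass. The V(D)J and early B-cell lists hold genes on both sides of 0, and 9 of the 15 other genes of the IL-7 list passed the limma test above it.

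Most markers of mature lymphoid cells were low in both states. Cd3e and Gzma were listed at 0 in all 48 libraries, and Igkc reached at most 0.0395 TPM. The summed B-cell markers (9 genes) ran from 5.59 to 57.7 TPM in monocytes and from 1.89 to 26.04 TPM in progenitors, and most of the monocyte sum was Ighm, which averaged 25.1 TPM in monocytes and 5.23 TPM in progenitors. The summed T-cell markers (10 genes in the table) ran from 0.705 to 6.86 TPM in monocytes and from 1.77 to 52.9 TPM in progenitors. Thy1 (log2 fold change -2.07, SE 0.26) and the kinase Lck (-1.21, SE 0.14) fell, both also found outside T cells. Of 11 markers of NK and innate lymphoid cells, some of which carry Il7r in the body, 10 had a mean under 1 TPM in both states. The tested gene, Il1rl1, did not pass (-0.48, limma adjusted p = 0.0737) but did in the rescaled table (-0.73, limma adjusted p = 0.0166). Its pooled value averages unlike changes (limma adjusted p = 0.0315 for the difference between the sets). The change was -1.10 in clones 1 to 13 (limma adjusted p = 0.00786) and did not pass in clones 15 to 26 (0.25, limma adjusted p = 0.287). Of 8 markers of plasmacytoid dendritic cells 3 were tested, of which Cox6a2 (-2.61, SE 0.17) and Tcf4 (-1.20, SE 0.16) fell, where 36.5% of all genes did. Bst2, which interferon also induces, rose by 0.83 (SE 0.30, limma adjusted p = 0.0169), a call lost in the rescaled table (0.57, limma adjusted p = 0.102). Of the changes named here, those of Jak1, Socs3, Il21r, Cd79b, Poll, Polb, Notch1, Dach1 and Bst2 did not pass in clones 15 to 26 alone.

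The labelled cell types were checked against their own markers. Of 8 progenitor markers 5 fell and 1 rose (6 and 1 in the rescaled table), where 36.5% of all genes fell and 32.4% rose. Cd34 (-5.85) and Ctsg (-3.62) fell most. The summed level of the 8 ran from 45.5 to 9869 TPM in monocytes and from 1981 to 9257 TPM in progenitors, so the groups overlapped. Of 9 monocyte markers 7 rose, led by Lyz2 (6.60), and 1, the chemokine receptor Ccr2 (-0.97), fell, against the same shares of all genes. Their sum ran from 2175 to 20891 TPM in monocytes and from 85.8 to 1378 TPM in progenitors. All 8 neutrophil granule markers rose in the libraries labelled monocytic, where 32.4% of all genes rose. Across progenitors Dntt passed with markers of all 3 lists, in both directions, where 14.7% of all genes passed. Of 8 progenitor markers Cd34 passed with a positive r (0.699) and Elane (-0.654), Mpo (-0.602) and Gfi1 (-0.553) with a negative one. Of 7 monocyte markers F13a1 passed with a positive r (0.719) and Cd14 (-0.613), Ly6c2 (-0.594) and Csf1r (-0.577) with a negative one. Of 8 neutrophil granule markers Lcn2 (-0.732, permutation adjusted p = 0.00310) and Cebpe (-0.692) passed with a negative r. With each set centred no marker of these lists passed with Dntt, where 0.317% of all genes did, and their part in its level was not tested.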

How the data were processed

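RNA-seq of 24 clones in 2 states, 48 libraries, was analysed from 1 table of TPM per gene symbol that the authors deposited. Per the submitters' processing notes, quantification used Salmon on mm10. Neither the annotation release, nor how transcripts became genes, nor the use of strand was given in the sources used here. The table had 34643 rows; the 26 named by a date were left out, and 0 columns were unmapped. The highest correlation between libraries was 0.986, so no library was taken for a copy of another. Gene spans came from the mouse annotation of mm10 and promoters from RefSeq.

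Changes were tested on log2(TPM + 1) by limma (version 3.58.1, run in R 4.3.3) with a mean-variance trend, two-sided, for genes with a mean of at least 1 TPM, with Benjamini-Hochberg adjustment over all of them and a threshold of 0.05. Clone was the block between states, since the series' text pairs them. The 2 libraries of a clone deviated together from their group means, with r above 0.1, in 18 of 24 clones. With each set of clones centred this held in 12 (clones 15 to 26, 10 of 11; clones 1 to 13, 2 of 13). Sets of clones were compared on the differences within clones and within each state. Correlations were tested with 100000 permutations in Python 3.11.15, using pandas 2.3.3, numpy 2.4.6, numba 0.67.0, scipy 1.17.1 and, for plots, matplotlib 3.10.9. Agreement across states needed an SD of at least 0.25 log2 units in both states. Both kinds of test were checked on simulated data.

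The members, the sets of clones and the 15 lists (157 genes, 156 in the table) were chosen with earlier results of these data known. The text names the members, the 5 genes with the highest centred r with each (mean of at least 5 TPM, SD of at least 0.5, no Gm, mt- or Rik names), up to 3 passing genes with the largest change per list, and members of a list near 0 by count; other genes were named after their values were seen. Alternatives were pseudocounts of 0.1 and 5, no filter and a mean of at least 5 TPM, rescaling without mitochondrial, Gm and pseudogene entries (13063 rows), other subsets of clones, no trend and no block, and, added after seeing the data, each clone left out.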

Additional observations from a re-analysis of the deposited data

Results flagged for a closer look

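The change between states differed between the sets of clones, by a limma test of the difference itself, for 1 of the 3 members and for 5 of 36 list genes named by rule. For Dntt the difference (clones 15 to 26 minus clones 1 to 13) was 2.25, with -1.58 in clones 15 to 26 against -3.84 in clones 1 to 13. With Dntt near 0 in monocytes, where the sets differed by -0.06, this restates the difference of -2.32 between their progenitors and is not a separate result. For Id2, an inhibitor of E proteins, it was -1.13 (adjusted p = 0.0450), with changes of 4.17 in clones 15 to 26 against 5.31 in clones 1 to 13. For the kinase Lck it was -0.76 (adjusted p = 0.0358), with -1.62 in clones 15 to 26 against -0.87 in clones 1 to 13. The other 3 were genes of mature myeloid cells. The integrin Itgam differed by -2.39 (adjusted p = 5.37e-05), with 4.40 in clones 15 to 26 against 6.79 in clones 1 to 13. The granule protein Ltf differed by -5.08 (adjusted p = 0.00540), with 6.15 in clones 15 to 26 against 11.24 in clones 1 to 13. Lysozyme, Lyz2, differed by -2.16 (adjusted p = 0.00665), with 5.43 in clones 15 to 26 against 7.59 in clones 1 to 13. Of all 11072 genes 11.5% passed this test. The sets were chosen with these profiles known, so its p-values can be too small.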

How the results depend on the processing

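The clone in each library pair was used as a block: without it limma called 7436 genes between states in place of 7623, and with clone as a random effect 7637. Direction held for all 3 members between states in every alternative, with values of -5.28 for Dntt, -3.18 for Ebf1 and 4.11 for Il7r at a pseudocount of 0.1 and 1.37 for Il7r at 5. In clones 15 to 26 alone 5005 genes were called between states. For the change between states compared between the sets of clones (1268 genes called), the count was 680 at a mean of at least 5 TPM and 2938 without clones 19, 21, 24 and 26. It ran from 725 without clone 18 to 3036 without clone 24, and was 742 without clone 23, 792 without clone 7, 837 without clone 19, 2033 without clone 21 and 2429 without clone 8. Il7r passed that test at a pseudocount of 0.1 (-2.05) and in the rescaled table (-1.32). It ran from -1.42 to -1.04 with each clone left out, passing without clone 8, 9, 15 or 24 (-1.42 to -1.27). Most of its progenitor values were under 1 TPM, so these calls are not read as a difference. Ebf1 passed without clones 19, 21, 24 and 26 (-1.11), which mostly restates its difference between progenitors. In progenitors (4358 genes called between the sets) the count was 2753 at a mean of at least 5 TPM and 7625 without those 4 clones, where Ebf1 passed with 0.94. Il7r there ran from 0.42 to 0.67 with each clone left out, and its call was also lost at a pseudocount of 5 (0.21), with no filter (0.59) and at a mean of at least 5 TPM (0.59). Ebf1 could not be tested at a mean of at least 5 TPM. Between monocytes of the sets 791 genes were called, from 605 to 1276 with each clone left out, the highest without clone 8. For agreement across states (459 genes) the count was 296 by Spearman, 42 centred, 0 in clones 1 to 13 alone (560 at an unadjusted permutation p under 0.05), 33 in clones 15 to 26 alone, 964 rescaled and 702 without the 4 clones. Relations to Dntt (1573 genes) numbered 954 by Spearman, 34 centred, 0 in clones 1 to 13 (336 unadjusted), 0 in clones 15 to 26 (956 unadjusted), 939 without the 2 farthest clones and 3989 without the 4 clones. Relations to Ebf1 (5933) numbered 2995 in clones 1 to 13 and 0 in clones 15 to 26 (2235 unadjusted), and Dntt passed among them centred (0.648). Relations to Il7r in progenitors (723) numbered 3624 by Spearman, 13 centred, 30 in clones 1 to 13, 0 in clones 15 to 26 (483 unadjusted), 3 without the 2 farthest and 5634 without the 4 clones. The r of Il7r with Dntt (-0.298) turned to 0.075 centred, 0.034 in clones 15 to 26 and 0.2503 in clones 1 to 13, and was -0.510 without the 4 clones. Relations to Il7r in monocytes (2820) numbered 286 in clones 15 to 26, 1226 without the 2 farthest and 1565 without the 4 clones. Why these counts and values moved was not tested. Some of the settings also held fewer clones or genes. Of 507 values of named genes 29 lost their call and 0 reversed. Sequencing depth is unknown, and differences among values under 1 TPM are not firm.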
